A study of Mus musculus with 10 samples.

Results

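The comparison of the CTG480 repeat with the CTG0 fragment rested on 4 of the 10 libraries of the series, which were chosen by their labels. CTG480 libraries came from N2A cells transfected with a plasmid carrying a fragment of DMPK, the gene whose CTG repeat expands in myotonic dystrophy type 1, with 480 CTG repeats. CTG0 libraries came from N2A cells transfected with the same fragment with 0 repeats. N2A (Neuro2a) is a neuroblastoma line from mouse whose cells grow neurites once serum is withdrawn. Cells grew on membranes with 1 µm pores, and after 48 h in medium without serum the soma above and the neurites below the membrane were collected separately. The other 6 libraries, soma and neurites of cells with the Kif1bα, Kif1c or Kif1bβ tail, served only to show how far a gene varied between transfections. Each transfection and fraction gave 1 library, from the pooled wells of a 6-well plate, so a difference between CTG480 and CTG0 has no replicate check and no p was computed. Transfection was transient, and the files do not give the share of cells that took up a plasmid. In such bulk samples, more cells of a kind and more RNA per cell cannot be told apart.

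Expanded CUG repeats in RNA bind MBNL proteins, which regulate splicing in the nucleus and localize and stabilize mRNAs in the cytoplasm, and keep them from their other targets. CELF proteins act on many of the same exons. The question of the comparison was what happens to RNA levels and to the neurite localization of RNAs when the repeat is expressed. A total of 9853 genes averaged 5 TPM or more across the libraries (TPM, a length-normalized measure of abundance, summed over the transcripts of a gene), of which 9462 were protein-coding and 391 were not. The log2 ratio of CTG480 over CTG0 was taken in each fraction after adding 0.1 TPM. The localization ratio of a gene is its log2(neurite/soma), and the difference between CTG480 and CTG0 in it equals the log2 ratio in neurites minus that in soma. Differences were counted from 0.25, a 1.19-fold change, and from 0.5, a 1.41-fold change.

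The signal assigned to the transfected fragment was lower with the repeat. The row of the DMPK fragment held 689.5 TPM in CTG480 soma and 1376 TPM in CTG480 neurites, against 5716 TPM in CTG0 soma and 7066 TPM in CTG0 neurites. It was 8.29-fold lower with CTG480 in soma and 5.13-fold lower in neurites, and its localization ratio was higher by 0.69. The row of pEGFP-C1 was also lower with CTG480, 3.01-fold in soma and 1.89-fold in neurites. The authors cloned the kinesin tails into pEGFP-C1 and do not say that the DMPK fragment was in it. The labels and the files do not say how reads of the repeat were treated in the row of the DMPK fragment. Plasmid rows were left out of all comparisons that follow. Endogenous Dmpk was under the minimum, at 4.79 TPM in CTG480 soma and 3.77 TPM in CTG480 neurites, against 3.97 TPM in CTG0 soma and 3.12 TPM in CTG0 neurites.

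Most genes differed little between CTG480 and CTG0. In soma, 623 genes were higher with CTG480 by 0.25 or more (6.32%) and 631 were lower (6.4%). In neurites, 885 were higher (8.98%) and 858 were lower (8.71%). Among 5292 protein-coding genes of at least 20 TPM, the log2 ratio had an SD over genes of 0.12 in soma and 0.15 in neurites. The 9 other pairs of transfections ranged from 0.13 to 0.15 in soma and from 0.13 to 0.17 in neurites, so CTG480 and CTG0 lay no further apart than cells with other plasmids. A difference seen in soma was also rarely seen in neurites. Across the same genes the log2 ratios of soma and neurites had a Pearson's r of 0.05 and a Spearman's rho of −0.00, as a description over genes, which are not replicates. Both fractions were past 0.25 in the same direction for 266 genes and in opposite directions for 250 genes. Of the 266, 152 were higher with CTG480 (1.54%) and 114 were lower (1.16%). At 0.5, 34 genes were higher in both fractions (0.345%) and 27 were lower (0.274%), against 53 genes with opposite directions.

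**Figure D1:**
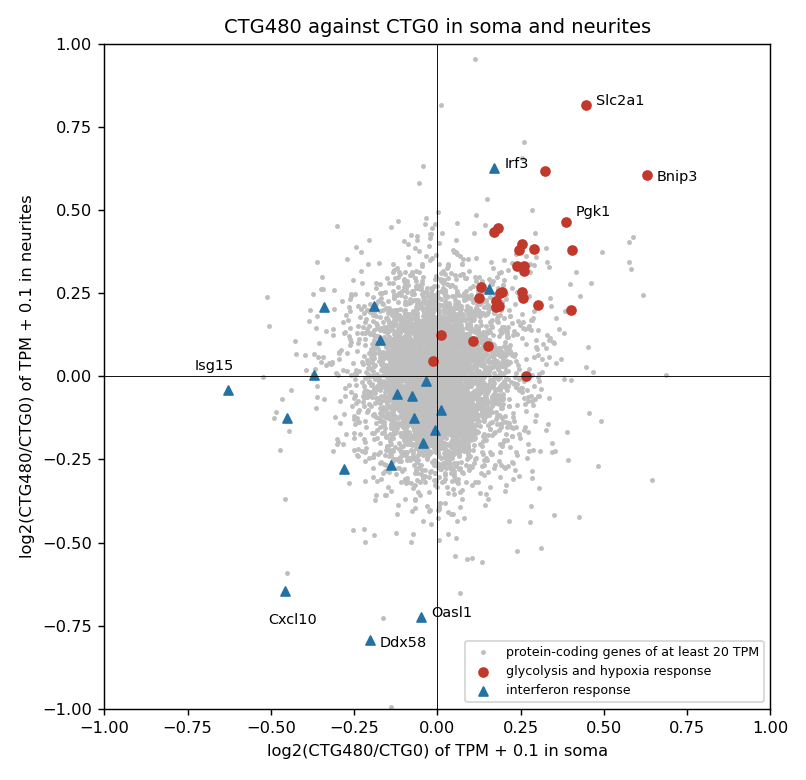
Each point is a gene, with its log2 ratio of CTG480 over CTG0 in soma (horizontal) and in neurites (vertical), 1 library per transfection and fraction. Grey points are protein-coding genes of at least 20 TPM (2 lie outside the axes), red circles the 29 glycolysis and hypoxia response genes, of which 28 were above 0 in both fractions, and blue triangles the 20 interferon response genes.

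Glycolysis and hypoxia response genes stood out from this background. These genes encode the enzymes that turn glucose into pyruvate and lactate, glucose transporters, and proteins induced when oxygen is low. In low oxygen, the prolyl hydroxylases of the Egln family no longer mark Hif1a for degradation through Vhl, and the HIF complex binds DNA with its partner Arnt. Of 35 listed genes, 34 had a row and 29 reached the minimum. Of the 29, 28 were higher with CTG480 in both fractions, and Hk1 stood at −0.01 in soma and 0.05 in neurites. The median log2 ratio of the list was 0.25 in soma and 0.25 in neurites, against −0.00 and −0.00 over all genes. In soma, 14 members were higher by 0.25 or more and 0 were lower, and in neurites 17 were higher and 0 were lower. In both fractions 10 of 29 were higher by 0.25 or more, against 1.54% of all genes.

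**Figure D2:**
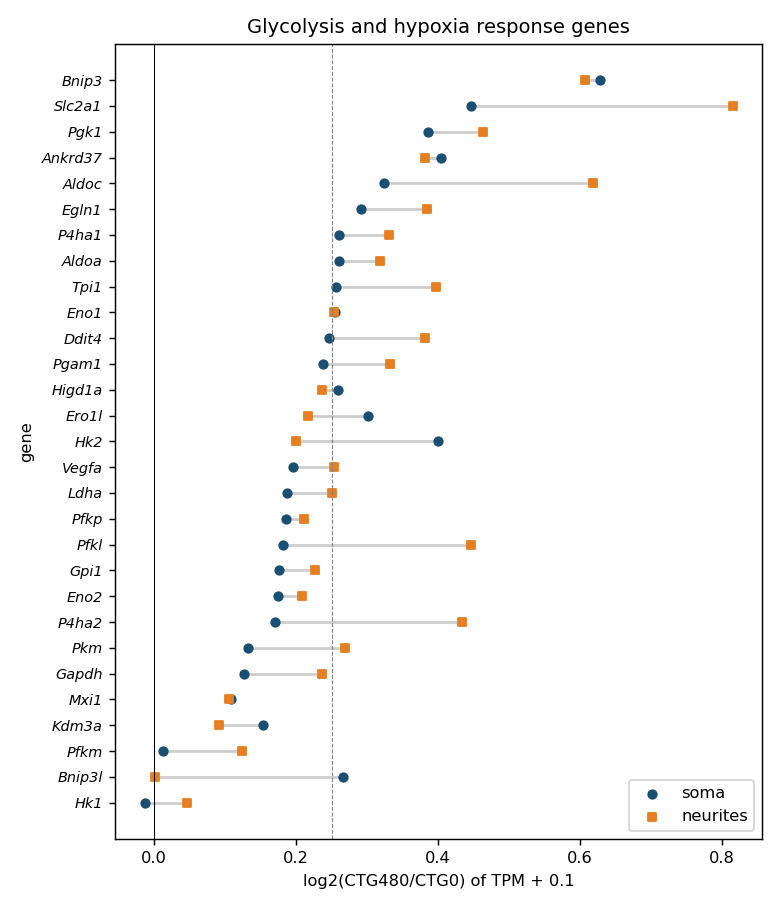
For each of the 29 glycolysis and hypoxia response genes of at least 5 TPM, the log2 ratio of CTG480 over CTG0 is shown in soma (blue circles) and in neurites (orange squares), with the dashed line at 0.25. Bnip3 and Slc2a1 were highest, and the points nearest to 0 were Pfkm in soma and Bnip3l in neurites.

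Bnip3, a mitochondrial protein that promotes mitophagy, had the highest ratio among them when the lower of its ratios in the 2 fractions was compared. It held 96.4 TPM in CTG480 soma against 62.3 TPM in CTG0 soma, and 75.2 TPM in CTG480 neurites against 49.4 TPM in CTG0 neurites. Its log2 ratio was 0.63 in soma and 0.61 in neurites. The kinesin tail libraries ranged from 62.3 to 82.4 TPM in soma and from 53.2 to 59.8 TPM in neurites, so CTG480 was above all of them in both fractions. Slc2a1, the glucose transporter GLUT1, held 44.8 TPM in CTG480 soma against 32.9 TPM in CTG0 soma. In neurites it held 36.6 TPM with CTG480 against 20.8 TPM with CTG0, and the tail libraries lay between 25.6 and 27.6 TPM. Its log2 ratio was 0.45 in soma and 0.82 in neurites, where CTG480 was above and CTG0 below all tail libraries. Pgk1, which makes ATP in glycolysis, held 468 TPM in CTG480 soma and 468 TPM in CTG480 neurites, against 359 TPM in CTG0 soma and 340 TPM in CTG0 neurites. For Pgk1 the tail libraries ranged from 392.5 to 435 TPM in soma and from 389.98 to 419.5 TPM in neurites, between CTG480 and CTG0 in both fractions.

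Among the enzymes of glycolysis, Tpi1, Aldoa, Eno1 and Aldoc were higher by 0.25 or more in both fractions. Aldoc, an aldolase, stood at 0.32 in soma and 0.62 in neurites, and Tpi1, triose phosphate isomerase, at 0.26 and 0.40. Aldoa, the main aldolase, stood at 0.26 and 0.32, and Eno1, an enolase, at 0.26 and 0.25. Hk2, a hexokinase, stood at 0.40 in soma and 0.20 in neurites. Ldha, which makes lactate, stood at 0.19 in soma and 0.25 in neurites, and Gapdh at 0.13 and 0.24. The phosphofructokinase subunits differed among themselves: Pfkl stood at 0.18 in soma and 0.45 in neurites, Pfkp at 0.19 and 0.21, and Pfkm at 0.01 and 0.12.

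Members of the hypoxia response outside glycolysis were also higher. Ankrd37, a HIF target, held 39.2 TPM in CTG480 soma against 29.6 TPM in CTG0 soma, and 37.9 TPM in CTG480 neurites against 29.0 TPM in CTG0 neurites. The oxygen sensor Egln1 held 47.2 TPM in CTG480 soma against 38.6 TPM in CTG0 soma, and 52.8 TPM in CTG480 neurites against 40.4 TPM in CTG0 neurites. For both genes CTG480 was the highest of the 5 transfections in both fractions. P4ha1 and P4ha2, subunits of collagen prolyl hydroxylase, stood at 0.26 and 0.17 in soma and at 0.33 and 0.43 in neurites. Ddit4, an inhibitor of mTORC1 signalling, stood at 0.25 in soma and 0.38 in neurites, and Vegfa, an angiogenic growth factor, at 0.20 and 0.25. Bnip3l, a relative of Bnip3, stood at 0.27 in soma and 0.00 in neurites.

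CTG480 was often above the tails and CTG0 often below them, not always for the same members. CTG480 was the highest of the 5 transfections in both fractions for 19 of the 29 members, against 4.34% of all genes. CTG0 was the lowest in both fractions for 13 of the 29, against 3.88% of all genes. Relative to the median of the 3 tail libraries, the median member stood at 0.13 in CTG480 soma and 0.17 in CTG480 neurites, and at −0.09 in CTG0 soma and −0.12 in CTG0 neurites. The list was already chosen with results of these libraries known, so these counts are a description of 4 libraries.

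**Figure D3:**
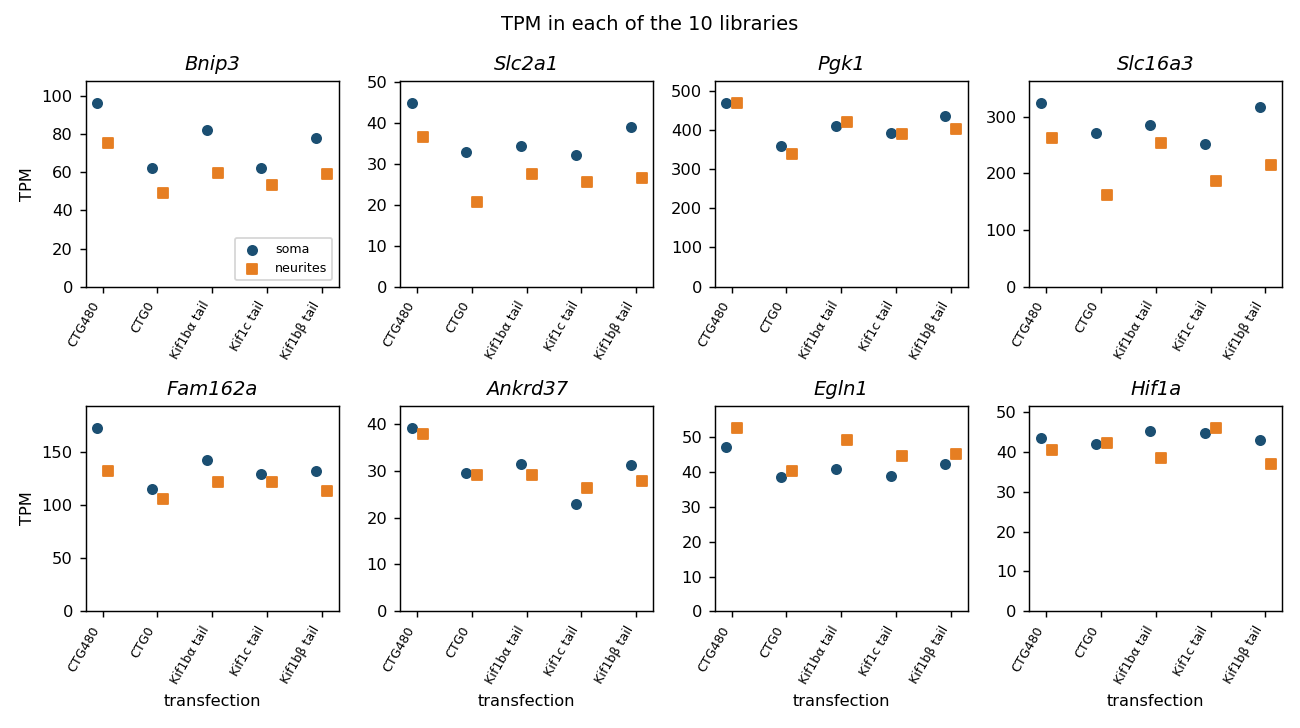
TPM of 8 genes in each of the 10 libraries, by transfection (horizontal) in soma (blue circles) and neurites (orange squares), 1 library per point. CTG480 was above CTG0 in both fractions for each gene but Hif1a, which held 43.5 and 41.9 TPM in soma and 40.4 and 42.3 TPM in neurites with CTG480 and CTG0.

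A second set of 27 hypoxia-induced genes, put together after the values had been seen, showed the same direction with smaller sizes. Of 23 at the minimum, 5 were higher by 0.25 or more in both fractions, against 1.54% of all genes, and 0 were lower, with medians of 0.15 in soma and 0.18 in neurites. Slc16a3, which exports lactate, held 324 TPM in CTG480 soma against 270.3 TPM in CTG0 soma, and 263 TPM in CTG480 neurites against 161 TPM in CTG0 neurites. The mitochondrial protein Fam162a held 173 TPM in CTG480 soma against 116 TPM in CTG0 soma, and 133 TPM in CTG480 neurites against 106 TPM in CTG0 neurites. Slc2a3, the glucose transporter GLUT3, stood at 0.33 in soma and 0.38 in neurites. Cox4i2, a cytochrome oxidase subunit used in low oxygen, had the highest ratios, 0.90 in soma and 1.178 in neurites, but at only 11.8 and 6.26 TPM in CTG480 and CTG0 soma. Other genes of the set did not follow: Wsb1 stood at 0.02 and −0.00, Cited2 at −0.07 and −0.01, Kdm4c at −0.01 and −0.11, and Plod1 at −0.06 and 0.01 in soma and neurites. The mRNAs of the oxygen-sensing machinery, a further set chosen after the values had been seen, had medians of 0.02 in soma and 0.13 in neurites over 6 genes. Hif1a stood at 0.05 in soma and −0.07 in neurites, Vhl at 0.19 and 0.17, Arnt at −0.04 and 0.25, Egln2 at −0.09 and 0.08, and Hif1an at −0.02 and 0.00, while Egln1 stood at 0.29 and 0.38.

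HIF binds DNA at the core motifs ACGTG and GCGTG, so the promoters of the leading members are shown, with each match to these letters on either strand in capitals (CACGT and CACGC on the strand shown). They are 60-base windows from the 250 bases before the annotated start of the gene, 5′ to 3′ on the strand of the gene, taken from RefSeq on GRCm38.p6, for the members with the highest ratios that had a promoter outside the gene. The windows lie at unlike distances from the start, and only windows with a match are shown.
Bnip3, chr7:138909585-138909644, minus strand: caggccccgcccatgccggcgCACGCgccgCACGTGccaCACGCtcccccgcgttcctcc
Slc2a1, chr4:119108666-119108725, plus strand: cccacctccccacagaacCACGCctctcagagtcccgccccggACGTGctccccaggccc
Pgk1, chrX:106186929-106186988, plus strand: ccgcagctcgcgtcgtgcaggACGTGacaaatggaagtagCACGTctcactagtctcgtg
Aldoc, chr11:78322993-78323052, plus strand: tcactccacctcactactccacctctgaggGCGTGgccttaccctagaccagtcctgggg
Egln1, chr8:124949351-124949410, minus strand: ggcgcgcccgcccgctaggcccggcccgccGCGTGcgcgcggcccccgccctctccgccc
The 250 bases of Bnip3 held 5 matches, the palindrome CACGTG counting on both strands, those of Slc2a1, Pgk1 and Egln1 held 2 each, that of Aldoc 1, and that of Tpi1 0. Of 43 promoters of 27 members, 32 held a match (74.4%), against 5598 of 9660 promoters of all genes of at least 5 TPM (58.0%). The median promoter held 1 match in the list and 1 match over all genes. Such a match is a description of the letters and does not show a bound site.

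Interferon response genes tended to be lower with CTG480. These genes are induced when cells sense foreign nucleic acid, by sensors such as Ddx58 (RIG-I), through factors such as Irf3, Stat2 and Irf9. Of 37 listed genes, 20 reached the minimum, 13 of them lower in both fractions and 2 higher, where 2510 of all 9853 genes were lower and 2385 higher in both. The median log2 ratio was −0.13 in soma and −0.08 in neurites. In soma, 6 of 20 were lower by 0.25 or more (6.4% of all genes) and 0 were higher, and in neurites 5 were lower (8.71% of all genes) and 2 were higher. Cxcl10, a chemokine, held 18.9 TPM in CTG480 soma against 25.98 TPM in CTG0 soma, and 12.3 TPM in CTG480 neurites against 19.3 TPM in CTG0 neurites. CTG480 was below all 4 other transfections in both fractions for Cxcl10. Ddx58 held 5.31 TPM in CTG480 neurites against 9.28 TPM in CTG0 neurites, and 6.68 TPM in CTG480 soma against 7.71 TPM in CTG0 soma. Isg15, a ubiquitin-like protein, was lower in soma (23.4 TPM with CTG480 against 36.3 TPM with CTG0) but not in neurites (42.5 against 43.7 TPM). Irf3 went the other way, with 20.01 TPM in CTG480 neurites against 12.9 TPM in CTG0 neurites. Levels of this list also varied between the tails: relative to the median of the 5 transfections, the median member stood at −0.16 in CTG480 soma and 0.00 in CTG0 soma, against 0.15 in Kif1c tail soma and −0.07 in Kif1bβ tail soma. CTG480 was the lowest of the 5 for 10 of the 20 members in soma, against 19.1% of all genes, and for 11 in neurites, against 22.6%.

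**Figure D4:**
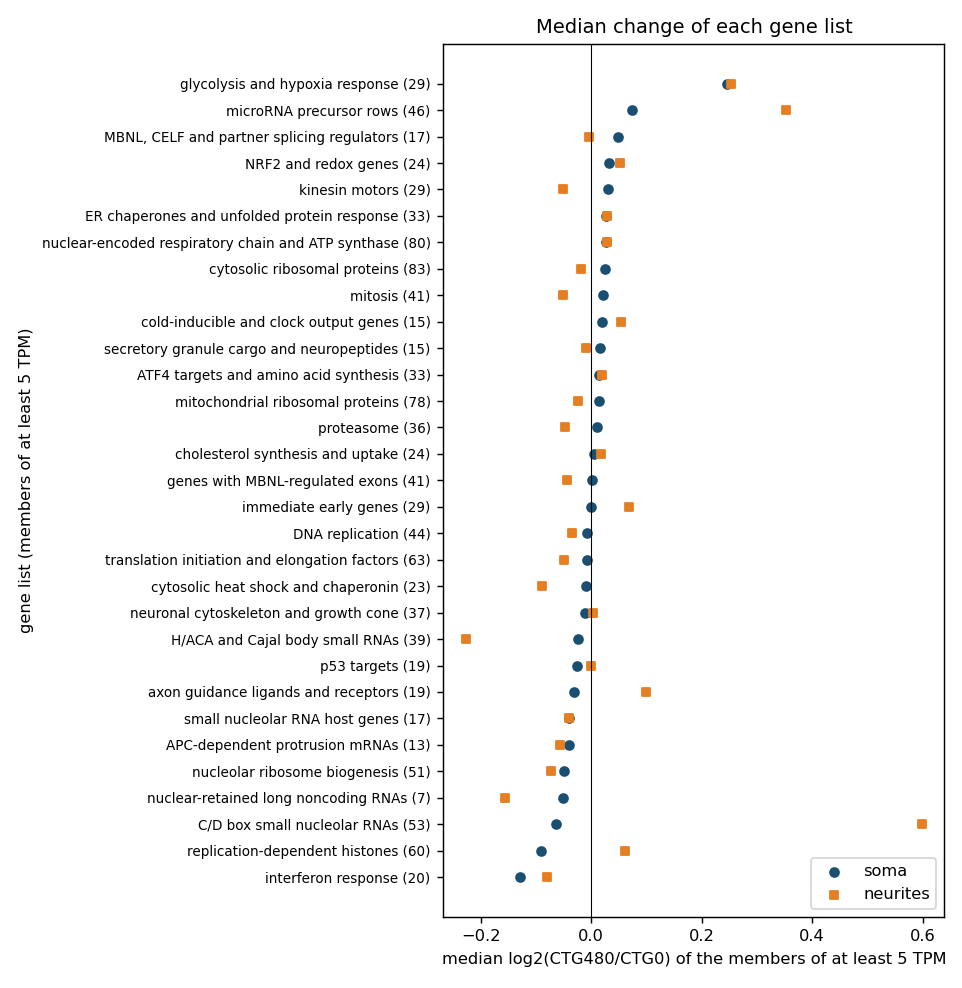
Median log2 ratio of CTG480 over CTG0 of the members of each gene list in soma (blue circles) and neurites (orange squares), with the number of members of at least 5 TPM in brackets. Glycolysis and hypoxia response genes had medians of 0.25 in both fractions, and most other lists of protein-coding genes lay within 0.1 of 0.

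Other protein-coding genes of at least 20 TPM that were higher in both fractions had no list in common. Ss18l2 held 33.9 TPM in CTG480 soma against 22.5 TPM in CTG0 soma, and 29.5 TPM in CTG480 neurites against 22.02 TPM in CTG0 neurites. Apoo, a subunit of the MICOS complex of mitochondrial cristae, stood at 0.57 in soma and 0.40 in neurites. Sncb, which encodes β-synuclein, stood at 0.57 and 0.34, Tmem256 at 0.49 and 0.37, Hagh, a glyoxalase, at 0.33 and 0.34, and Ppfibp2, a liprin, at 0.33 and 0.33. For Ss18l2, Apoo, Sncb, Tmem256 and Ppfibp2, but not Hagh, CTG0 was the lowest of the 5 transfections in soma. For Ppfibp2 the Kif1bα tail was above CTG480 in both fractions. For Sncb the Kif1bα and Kif1bβ tails were above CTG480 in neurites. Among the lowest, Park2, which encodes parkin, held 67.0 TPM in CTG480 soma against 91.7 TPM in CTG0 soma, and 17.5 TPM in CTG480 neurites against 26.5 TPM in CTG0 neurites. Its tail libraries ranged from 61.3 to 121 TPM in soma, a spread that covered both values, while in neurites they ranged from 22.8 to 32.4 TPM, so CTG480 lay below all of them. Hmgb3, a chromatin protein, stood at −0.46 in soma and −0.37 in neurites, Pdss1, an enzyme of ubiquinone synthesis, at −0.47 and −0.22, and Zc3hc1 at −0.31 and −0.23. Bola1 stood at −0.26 and −0.32, the augmin subunit Haus1 at −0.24 and −0.24, Pop7 at −0.24 and −0.24, the Mediator subunit Med19 at −0.22 and −0.22, and the histone genes Hist1h2ao and Hist1h4m at −0.25 and −0.22 in soma and −0.46 and −0.46 in neurites.

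Among protein-coding genes of at least 20 TPM, the lowest in both fractions was Snurf, at −1.33 in soma and −1.16 in neurites, and its counterpart Snrpn was higher. Snurf and Snrpn are encoded by 1 bicistronic transcript, so reads of the locus can be given to either name. Snrpn held 20.4 TPM in CTG480 soma against 0.969 TPM in CTG0 soma, and 27.3 TPM in CTG480 neurites against 1.62 TPM in CTG0 neurites. Their sum held 31.5 TPM in CTG480 soma against 28.9 TPM in CTG0 soma, and 42.7 TPM in CTG480 neurites against 36.0 TPM in CTG0 neurites. The tails also switched between the names, with Snrpn at 20.1 TPM in Kif1c tail soma and 0.863 TPM in Kif1bα tail soma.

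The localization ratio differed by 0.25 or more for 2657 genes, 1360 of them higher with CTG480 (13.8%) and 1297 lower (13.2%). At 0.5, 365 genes were higher and 350 were lower. Among protein-coding genes of at least 20 TPM, 39 were higher and 41 were lower by 0.5 or more. Neither direction prevailed. Nr1h2, which encodes the nuclear receptor LXRβ, held 20.8 TPM in CTG480 neurites against 10.7 TPM in CTG0 neurites, with tails from 20.5 to 24.7 TPM. In soma it held 21.7 TPM with CTG480 against 20.1 TPM with CTG0, and its localization ratio was −0.07 with CTG480 and −0.91 with CTG0. Epn1, an endocytic adaptor, had ratios of 0.30 with CTG480 and −0.51 with CTG0. Unc5a, a netrin receptor, held 27.5 TPM in CTG480 neurites against 18.3 TPM in CTG0 neurites and had ratios of 0.06 and −0.57 with CTG480 and CTG0. Dpm3, a subunit of dolichol phosphate mannose synthase, held 52.3 TPM in CTG480 neurites against 33.7 TPM in CTG0 neurites, above the 31.8 to 40.0 TPM of the tails, and had ratios of 1.04 and 0.36. Mfsd10, Gtpbp6, the kinase gene Mapk7 and Dhrs7b had differences from 0.64 to 0.75, with lower soma values in CTG480 than in CTG0 for all 4 genes.

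**Figure D5:**
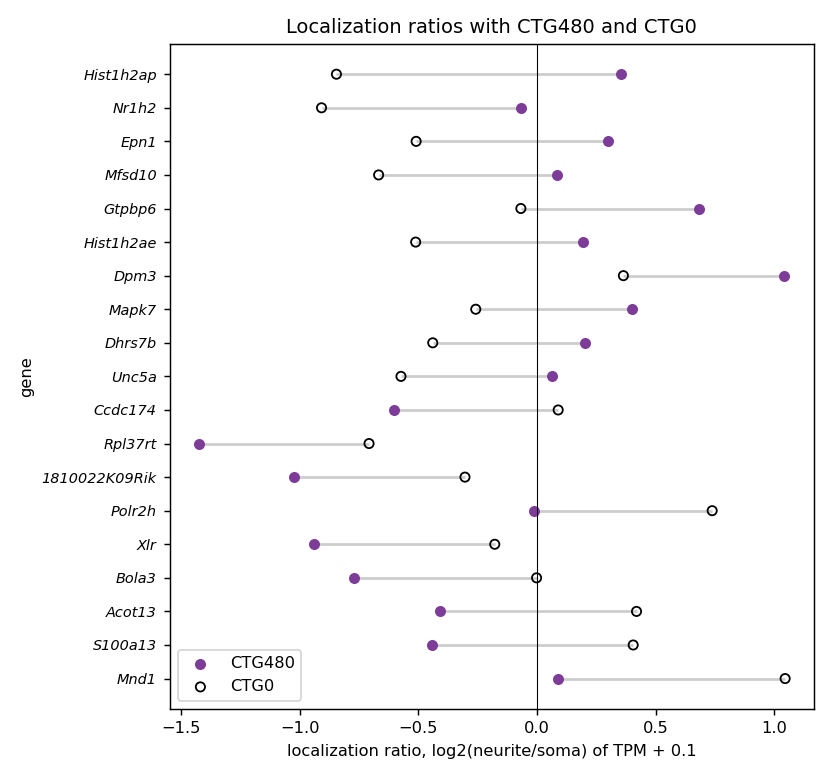
Localization ratio, log2(neurite/soma), with CTG480 (filled) and CTG0 (open) for the 10 protein-coding genes of at least 20 TPM with the highest difference and 9 of the 10 with the lowest (Gm20594, at −3.63 and −2.78, is left out for scale). The differences ran from 1.20 for Hist1h2ap to −0.96 for Mnd1.

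The genes with the lowest differences in the localization ratio were of several kinds. Mnd1, a meiotic recombination protein, held 22.7 TPM in CTG480 soma against 14.5 TPM in CTG0 soma, and 24.1 TPM in CTG480 neurites against 29.96 TPM in CTG0 neurites. Gm20594 had by far the highest level of the group and stood at 5928 TPM in CTG480 neurites against 11802 TPM in CTG0 neurites, and at 73637 TPM in CTG480 soma against 81016 TPM in CTG0 soma. Its neurite values in the tails ran from 8894 to 16036 TPM, so CTG480 was the lowest of the 5. The annotated gene spans only bases 79818031 to 79818364 of chromosome 6, and which RNA its reads came from was not tested. S100a13, Acot13, a thioesterase of mitochondria, Bola3, an iron-sulfur cluster assembly factor, Polr2h, an RNA polymerase subunit, and Xlr had differences from −0.85 to −0.75. For these 5 genes CTG480 was higher than CTG0 in soma and lower in neurites. The uncharacterized 1810022K09Rik held 70.8 TPM in CTG480 neurites against 111 TPM in CTG0 neurites, with tails from 93.5 to 125 TPM, and 144 against 137 TPM in soma. Rpl37rt, a ribosomal protein retrogene that may share reads with its parent gene, and Ccdc174 stood at −0.72 and −0.69.

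Of the genes of MBNL and CELF proteins, Mbnl1, Mbnl2 and Celf5 had a localization ratio that was lower with CTG480 by more than 0.25. Mbnl1 had a localization ratio of −0.32 with CTG480 and −0.02 with CTG0, and Mbnl2 of −0.39 and −0.07. Mbnl2 held 46.1 TPM in CTG480 neurites against 55.2 TPM in CTG0 neurites. Its tail libraries ranged from 46.4 to 53.3 TPM, and those of Mbnl1 from 49.7 to 56.9 TPM, where CTG480 held 46.8 TPM and CTG0 53.3 TPM. Of the CELF genes, Celf1 stood at 0.01 in soma and −0.00 in neurites, Celf3 at −0.12 and −0.00, and Celf6 at 0.09 and 0.04. Celf5 held 8.33 TPM in CTG480 soma against 5.12 TPM in CTG0 soma and stood at 0.69 in soma and 0.26 in neurites, with a difference of −0.43. Celf4 was under the minimum, and Celf2 and Mbnl3 were not analysed here. Of 17 splicing regulators measured, the localization ratio was lower by 0.25 or more in 3, against 13.2% of all genes, and higher in 0, against 13.8%. In both fractions 1 of the 17 was higher by 0.25 or more (1.54% of all genes) and 0 were lower (1.16% of all genes). Of 41 genes with MBNL-regulated exons, 0 were past 0.25 in both fractions, where 1.54% of all genes were higher and 1.16% lower. Their medians were 0.00 in soma and −0.04 in neurites, against −0.00 and −0.00 over all genes. Their localization ratio was higher by 0.25 or more in 2, against 13.8% of all genes, and lower in 3, against 13.2%. The 3 were Mbnl1, Mbnl2 and Tnnt2, and Mbnl1 and Mbnl2 were also counted among the splicing regulators. The kinesin-3 motor genes Kif1b and Kif1c stood at −0.14 and 0.08 in soma and at −0.01 and 0.19 in neurites.

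Ncl, which encodes nucleolin, held 208 TPM in CTG480 neurites against 241 TPM in CTG0 neurites and 171 TPM in CTG480 soma against 174 TPM in CTG0 soma. Its localization ratio was 0.28 with CTG480 and 0.47 with CTG0, a difference of −0.19, short of the 0.25 that 13.2% of all genes passed. The tails ranged from 215 to 261 TPM in neurites and from 183 to 203 TPM in soma, so CTG480 was the lowest of the 5 in both fractions. In neurites and soma, the Kif1bα tail held 230 and 203 TPM, the Kif1c tail 215 and 196 TPM, and the Kif1bβ tail 261 and 183 TPM. The localization ratio of Ncl with CTG480 therefore lay within the range of the tails and was not the lowest. Ncl belongs to the nucleolar factors that build ribosomes, and of 51 such genes the localization ratio was lower by 0.25 or more in 7, near the 13.2% of all genes, and higher in 2, against 13.8%. Nop10, of the H/ACA snoRNP, held 25.6 TPM in CTG480 neurites against 42.5 TPM in CTG0 neurites and had a difference of −0.56. Wdr12 stood at −0.51 and Polr1b, of RNA polymerase I, at 0.34. The median difference of the list was −0.05, against −0.00 over all genes.

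Relative use of transcripts was compared as the share of each transcript in the TPM of its gene, for 5807 transcripts of 2385 genes with several rows. The share changed by 10 percentage points or more in the same direction in both fractions for 291 transcripts (5.01%), 144 higher with CTG480 and 147 lower. It changed by as much in opposite directions for 313 transcripts. Across transcripts, the changes in soma and neurites had a Pearson's r of −0.00 and a Spearman's rho of −0.00, as a description. Among 144 transcripts of 46 genes with MBNL-regulated exons or of splicing regulators, 1 was higher by 10 points in both fractions and 0 were lower. This was Tnnt2 NM_011619, of cardiac troponin T, a classic MBNL and CELF target, whose share was 32.1% in CTG480 soma against 19.5% in CTG0 soma. The tail libraries held 8.53 to 17.1% in soma. In neurites the share was 41.1% with CTG480 against 28.9% with CTG0, and the tails held 39.6 to 42.4%, so there CTG0 stood apart and CTG480 did not. Camk2g, a calcium/calmodulin kinase, has only 2 rows, and NM_001039138 had 63.9% in CTG480 soma against 54.9% in CTG0 soma and a share higher by 10.5 points in neurites. Its tail libraries held 40.1 to 65.4% in soma, which covered both values. In neurites they held 47.6 to 65.2%, where CTG480 held 51.8% and CTG0 41.2%.

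Some mouse transcripts carry CTG or CAG repeats of their own. The 4 transcripts with 11 or more CTG repeats in a row had log2 ratios from −0.13 to 0.15 in soma and from −0.09 to 0.20 in neurites. Mapkap1 NM_177345, with 25 repeats in a row, stood at 0.15 in soma and −0.06 in neurites, and Pacsin2 NM_001159509, with 21, at −0.09 and 0.11. The 16 transcripts with as many CAG repeats had medians of −0.04 in soma, with a range from −0.73 to 0.30, and −0.06 in neurites, with a range from −0.23 to 0.45. Some of these transcripts were under 5 TPM, among them Fam160a2, which gave the lowest soma and the highest neurite ratio.

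Replication-dependent histone mRNAs, which end in a stem-loop and lack a poly(A) tail, more often had a higher localization ratio with CTG480 than with CTG0. Of 60 measured, 20 had a localization ratio higher by 0.25 or more, against 13.8% of all genes, and 5 had a lower one, against 13.2%. The median difference was 0.14, made of −0.09 in soma and 0.06 in neurites. Hist1h2ap held 403 TPM in CTG480 neurites against 175 TPM in CTG0 neurites, and 315 against 314 TPM in soma. Its tail libraries ran from 136 to 294 TPM in soma and from 222 to 266 TPM in neurites. Hist1h2ae held 113 TPM in CTG480 neurites against 88.9 TPM in CTG0 neurites and 98.7 against 127 TPM in soma. The histone genes are near-identical copies, so reads may be split between them, and Hist1h2bq and Hist1h2br had the same values in every library.

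Noncoding genes, a set of small and long RNAs, were past the thresholds more often than genes as a whole. Of 391, 24.3% were past 0.5 in soma and 29.2% in neurites, against 3.11% and 3.94% of all genes. The lists of long ones were small and showed no clear excess. Of 17 small nucleolar RNA host genes, 1 was higher by 0.25 or more and 1 lower in soma, and 2 were higher and 0 lower in neurites. Of 7 nuclear-retained long noncoding RNAs, 0 were higher and 0 lower in soma, and 0 were higher and 2 lower in neurites. Of all genes, 12.7% were past 0.25 in soma and 17.7% in neurites. The fragments sequenced came from total RNA depleted of ribosomal RNA, with no step for small RNA stated. C/D box snoRNAs guide the methylation of ribosomal RNA. Their 53 rows had a median log2 ratio of −0.06 in soma and 0.60 in neurites, and a median difference in the localization ratio of 0.91, with 32 rows higher by 0.25 or more and 10 lower, where 123 of all 391 noncoding genes were higher and 106 were lower. Relative to the tails, the median C/D row was −0.63 in CTG480 soma and 0.51 in CTG480 neurites, against −0.56 in CTG0 soma and −0.03 in CTG0 neurites. Snord58b had the highest difference of all named rows and held 169.9 TPM in CTG480 neurites against 11.01 TPM in CTG0 neurites, and 15.5 against 40.1 TPM in soma. Its tail libraries ran from 7.48 to 129 TPM in soma and from 15.3 to 70.3 TPM in neurites. Snord110 held 50.8 TPM in CTG480 neurites against 4.33 TPM in CTG0 neurites, and Snora28, of the H/ACA class that guides pseudouridylation, held 18.9 against 55.6 TPM there. Snord49a, at 1.19 in soma and 1.07 in neurites, the Cajal body RNA Scarna3b, at 1.42 and 2.32, Rnu73b, at 1.24 and 1.38, and Snora75, at 0.91 and 1.28, were higher with CTG480 in both fractions. Snord8, at −2.10 and −0.90, was lower. The 39 H/ACA and Cajal body RNAs had medians of −0.02 in soma and −0.23 in neurites.

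The 46 microRNA precursor rows scattered as widely, also within 1 cluster. Mir18, Mir19a and Mir20a are cut from the transcript of Mir17hg on chromosome 14, and their mature forms are shown with the seed (bases 2 to 8) in capitals because neighbours that share a transcript had unlike ratios.
mmu-miR-18a-5p: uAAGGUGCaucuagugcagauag
mmu-miR-19a-3p: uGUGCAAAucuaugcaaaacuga
mmu-miR-20a-5p: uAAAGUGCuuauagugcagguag
The seeds of the 3 differ. The sequences are from RefSeq on GRCm38.p6. The row Mir19a held 94.8 TPM in CTG480 neurites against 5.14 TPM in CTG0 neurites, with tails from 16.3 to 42.1 TPM, and 45.9 against 39.4 TPM in soma. Mir18 held 57.1 TPM in CTG480 neurites against 109.5 TPM in CTG0 neurites, and 91.4 against 57.1 TPM in soma. Mir20a held 66.3 TPM in CTG480 soma against 10.4 TPM in CTG0 soma, and 11.7 against 7.21 TPM in neurites. The host transcript Mir17hg held 6.58 TPM in CTG480 soma against 4.94 TPM in CTG0 soma, and 5.29 against 6.01 TPM in neurites. Mir3101, at 1.70 in soma and 1.63 in neurites, and Mir8091, at 0.86 and 0.89, were higher with CTG480 in both fractions. Mir8100, at −1.23 and −1.70, Mir3068, at −1.77 and −1.001, Mir1195, at −1.49 and −0.91, Mirlet7d, at −0.96 and −0.84, and the row Gm24148, at −1.19 and −1.06, were lower.

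Several further lists had medians near 0. Cytosolic ribosomal proteins (83 genes) had medians of 0.02 in soma and −0.02 in neurites, and subunits of the respiratory chain and ATP synthase (80) of 0.03 and 0.03. Mitosis genes (41) stood at 0.02 and −0.05, the cytoskeleton and growth cone list (37) at −0.01 and 0.00, and kinesin motors (29) at 0.03 and −0.05. Of 23 heat shock and chaperonin genes, 12 were lower in both fractions (2510 of all 9853 genes) and 2 higher (2385 of all genes), with a median of −0.09 in neurites, and Hsp90aa1 held 568 TPM in CTG480 neurites against 709 TPM in CTG0 neurites. Of 13 mRNAs that follow APC into protrusions, the localization ratio was lower by 0.25 or more in 1, against 13.2% of all genes. It was higher in 1, against 13.8%. These were Rab13, with a difference of −0.42, and Inpp1, with 0.26, and the median difference was −0.02. The 19 axon guidance genes had medians of −0.03 in soma and 0.10 in neurites and a median difference in localization ratio of 0.13. The ratio was higher by 0.25 or more in 4 of them, against 13.8% of all genes, and lower in 0, against 13.2%, the 4 including Unc5a and Nrp2, a semaphorin receptor, whose difference was 0.62. The 7 nuclear-retained long noncoding RNAs had medians of −0.05 in soma and −0.16 in neurites and a median difference in localization ratio of −0.12. The ratio was lower by 0.25 or more in 1 of them, near the 13.2% of all genes, and higher in 0. Tug1 held 21.8 TPM in CTG480 neurites against 26.4 TPM in CTG0 neurites, and Neat1 held 46.1 against 43.3 TPM.

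Markers were much alike in the 4 libraries. The 16 neuroblast and neuron markers with a row summed to 1853 TPM in CTG480 soma and 1829 TPM in CTG480 neurites, against 1910 TPM in CTG0 soma and 1833 TPM in CTG0 neurites. Of 24 listed markers of glia, macrophages, endothelium and epithelium, 4 had a row and 0 reached 5 TPM. Of the smooth muscle and muscle markers, Acta2 and Myh3 were above it, and their lists summed to 83.0 and 79.7 TPM in CTG480 soma, against 73.7 and 81.2 TPM in CTG0 soma. The sums of the 4 columns ran from 874161 to 1057265, and noncoding rows took 33.5% in CTG480 soma and 27.5% in CTG480 neurites, against 33.2% in CTG0 soma and 28.0% in CTG0 neurites. The rows of the DMPK fragment and of pEGFP-C1 were lower with CTG480 in both fractions. This difference in plasmid signal and the repeat cannot be told apart in the comparison of CTG480 with CTG0. Its part in the results above was not tested.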

How the data were processed

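The 10 libraries were mapped from the column names and labels to 5 transfections in 2 fractions. The authors sequenced RNA of soma and neurites depleted of ribosomal RNA from 300 ng of total RNA, with base calls by bcl2fastq 2.20 per the processing notes, estimated TPM for mm10 RefSeq transcripts and the plasmids in kallisto 0.43.0, and then applied cyclic loess across libraries. The signal in the deposited table is this linear TPM, whose columns no longer share a sum. The table gives no counts, so the depth is unknown and no interval was computed. A second table, the authors' log2 localization ratios, was not used.

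Of 17300 rows, 5 plasmid rows and 3 without a gene name were left out, and transcripts were summed to 13698 genes. Genes with a mean of at least 5 TPM were kept, and 0.1 TPM was added before log2. With 1 library per transfection and fraction, no test was run. Named genes were, with a mean of at least 20 TPM, the 12 highest and 12 lowest protein-coding genes by the ratio nearer to 0 of the 2 fractions where both had the same sign, the 10 highest and 10 lowest by the difference in localization ratio, the 6 highest and 6 lowest noncoding genes by each, the 3 highest and 3 lowest members of each list, and MBNL, CELF and kinesin-3 genes, Ncl and Dmpk. Other list members named were chosen after their values were seen. The members and lists were chosen with earlier results of these data known. Transcripts were matched to GENCODE sequences on GRCm38 by accession (97.8% of the rows). Scripts used pandas 2.3.3, numpy 2.4.6 and matplotlib 3.10.9 under Python 3.11.15, and the ratios were tested on simulated data. Alternatives were a pseudocount of 1 TPM, minimums of 1 and 20 TPM or none, scaling to the protein-coding sum, centring on the median, protein-coding genes only, single transcripts, the median of the 3 tail libraries as the reference and, for transcript shares, a minimum of 20 TPM or a change of 20 points. A run without rows of identical values was added after seeing the data.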

Additional observations from a re-analysis of the deposited data

Results flagged for a closer look

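Among the named genes, 7 small RNA rows are given here, of 53 genes in all for which the log2 ratio of CTG480 over CTG0 was past 0.5 in opposite directions in soma and neurites. The difference was not tested, since each transfection and fraction has 1 library. The localization ratio of Snord58b was higher by 5.30 with CTG480 than with CTG0, that of Snord42b by 5.03, that of Snord57 by 4.15 and that of Scarna9 by 4.02. For Snord87 the difference was −2.89, for Mir1249 −2.83 and for Mir18 −1.62. All 7 rows are noncoding, and 0 of the named protein-coding genes had opposite ratios past 0.5.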

How the results depend on the processing

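The medians of the glycolysis and hypoxia response list and of the interferon list moved by less than the spread between the tail transfections under every alternative run for them. No named gene past 0.5 changed sign. With a pseudocount of 1 TPM, a centring on the median, a scaling to the protein-coding sum or the tails as the reference, every count of genes stayed within 1.5 times. Of 164 values of named genes and lists, 4 moved by more than that spread under the scaling and 1 with the pseudocount, and of 87 such values 9 moved at a minimum of 20 TPM, 2 at 1 TPM and 2 with no minimum. Counts moved with the minimum, as more or fewer genes entered. Past 0.25 in soma they were 2434 genes at 1 TPM, 357 at 20 TPM, 3516 with no minimum and 2727 by single transcripts, and past 0.5 they were 853, 87, 1491 and 1049. In neurites they were 3072, 613, 4199 and 3237 past 0.25, and 1060, 115, 1821 and 1163 past 0.5. For the localization ratio they were 4173, 1006, 5416 and 4408 past 0.25, and 1679, 189, 2600 and 1903 past 0.5. In the same direction in both fractions they were 654, 88, 1072 and 702 past 0.25, and 172, 28, 357 and 209 past 0.5, where protein-coding genes alone gave 31. Transcript shares gave 55 higher and 53 lower at 20 TPM, and 27 and 27 at 20 points. No paired analysis was possible because each group holds 1 library. The depth of the libraries is unknown, so how much of a difference is counting error cannot be said, and cyclic loess removes general shifts between libraries.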
